A study of Mus musculus with 14 samples.

Results

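The genes described here are 54 developmental regulators outside the Hox clusters of the kind that Polycomb complexes hold silent in many tissues, taken with every probe that the mouse array carries under one of their names. All 54 names were on the array, with 76 of its 55681 probes and 54 of its 34821 gene names. Membership depended on the name alone, so a probe counted whether or not it gave a signal. The group holds transcription factors of the paired box, GATA, SRY-box, forkhead, NK, LIM, Iroquois, T-box, distal-less, TALE, even-skipped and other homeobox families, Zic and basic helix-loop-helix factors, and the secreted ligands Bmp2, Bmp4, Wnt5a and Wnt6.

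The samples were peritoneal B-1a cells of Bmi1 KO mice and of wild-type (WT) mice, with 7 one-colour arrays of each genotype, 1 array per sample. They came from a pair of experiments, here called set 1 (3 Bmi1 KO and 3 WT arrays) and set 2 (4 Bmi1 KO and 4 WT arrays) and told apart by how the titles are numbered. The labels give no age, strain or treatment, no design of the Bmi1 allele and no word on whether each sample is a separate animal. The spread behind the p-values is that between samples and may be technical. B-1a cells, a CD5-bearing branch of the B lineage, live in the peritoneal and pleural spaces and make natural antibody without immunisation.

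The Bmi1 protein belongs to Polycomb repressive complex 1, which places ubiquitin on histone H2A and compacts chromatin. It works with Polycomb repressive complex 2, the methyltransferase for lysine 27 of histone H3. In mammals both complexes gather at CpG-rich promoters, and in blood cells they are known for keeping regulators of other lineages silent, among them the neural, renal, cardiac, skeletal and endodermal factors of this group. Their counterpart inside the B lineage is Pax5, which B cells need to keep their identity.

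Each probe is a 60-base oligonucleotide, and the results turn on a few of them. The first 30 bases are shown as the scanner files list them, in lower case with runs of at least 4 G or C in capitals. The Meis1 probe (chr11:18780695-18780754, minus strand, mm9), the first probe of Pax2 (chr19:44909895-44909954, plus strand) and the first probe of Bmp4 (chr14:47003391-47003450, minus strand) had the smallest p-values between the genotypes. The other probes of Pax2 (chr19:44871124-44871183 and chr19:44835420-44835479, plus strand) and Bmp4 (chr14:47003198-47003257, minus strand) are shown because they gave other readings. Probes of Olig2 (chr16:91228470-91228529, plus strand), Evx2 (chr2:74493567-74493626 and chr2:74494072-74494131, minus strand) and Lhx1 (chr11:84335442-84335594 and chr11:84331888-84331947, minus strand) are shown because their signal did not follow the brightness of the array or differed sharply within 1 gene. The first Lhx1 probe is listed over an interval longer than the probe itself.
Meis1 probe 1: gtcatgtgtgtatttttccatagtcccacc
Pax2 probe 1: ggcaacccatacagccatCCCCagtacacc
Pax2 probe 2: tatacactgatcctGCCCacattagaggag
Pax2 probe 3: aCCCGacgtggtgaggcaGCGCatcgtgga
Bmp4 probe 1: caaccacctacacataccacacaaactgct
Bmp4 probe 2: gacaaatatatttataactacatattaaaa
Olig2 probe 1: aagaacaacatcaaaaagttgctgtgaata
Evx2 probe 1: tCGGGCCCCGCttGGCCCtCGGCtcctgct
Evx2 probe 2: accttccgtGCGCtttcacatccttattcg
Lhx1 probe 1: agtgtCGCCaaagagaacagcctccactcg
Lhx1 probe 2: tatgtaaaaaggtgttgtttacacgaggca

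Promoters of the group were rich in CpG. A RefSeq table of promoters (GRCm38.p6, 250 bases before to 50 after each start) held 44 promoters of 35 of the 54 genes. The dinucleotide CG, which reads the same on both strands, occurred in 100% of the 44 and in 94.6% of all 32851 promoters, so its number is the more telling value. The median was 17 CG per promoter for the group (range 6 to 40) and 7 for all promoters. The median ratio of observed to expected CG was 0.77 for the group and 0.38 for all promoters, and 61.4% of the group's promoters against 33.3% of all promoters had over 50% G and C together with a ratio over 0.6. The 10 promoters of genes that were above background on no array had a median of 26 CG, and the 18 promoters of genes bright enough to be tested had a median of 22.5. The promoter of Meis1, the gene with the largest difference below, held 15 CG (ratio 0.59). That is under the group's median of 17 CG, and the promoter fell just short of the ratio of 0.6. It lies on the minus strand at chr11:19018920-19019219 (GRCm38.p6) and is given with each CG in capitals.
Meis1 promoter: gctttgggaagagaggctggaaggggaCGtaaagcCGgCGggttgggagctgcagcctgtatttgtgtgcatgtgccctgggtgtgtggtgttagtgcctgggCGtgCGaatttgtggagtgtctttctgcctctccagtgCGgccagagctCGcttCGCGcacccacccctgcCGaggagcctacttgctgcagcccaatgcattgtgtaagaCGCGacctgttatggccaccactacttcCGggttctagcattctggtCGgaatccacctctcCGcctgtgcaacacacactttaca

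Most of these genes were undetected or seen on few arrays in B-1a cells of both genotypes. Of the 76 probes, 30 (39.5%) were well above background on 0 of the 14 arrays, against 16.7% of all probes, and 6 (7.89%) were above background on all 14, against 12.7% of all probes. By gene, 17 were above background on no array, 17 on 1 to 3 arrays, 14 on 4 to 13 arrays and 6 on all 14. The genes above background on no array were Sox7, Sox9, Foxd3, Nkx2-1, Nkx2-5, Lhx2, Lhx5, Isl1, Irx1, Irx5, Tbx2, Tbx5, Dlx1, Dlx2, Evx1, Zic2 and Hand2. They include Nkx2-5, Tbx5 and Hand2 of the heart, Nkx2-1 of lung and thyroid, Sox9 of cartilage and testis, and Isl1 of motor neurons and pancreas. The genes above background on all 14 arrays were Olig2, Wnt6, Otx2, Evx2, Bmp4 and Lhx1. In bulk samples a weak signal from every cell and a strong signal from a few cells cannot be told apart.

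**Figure D1:**
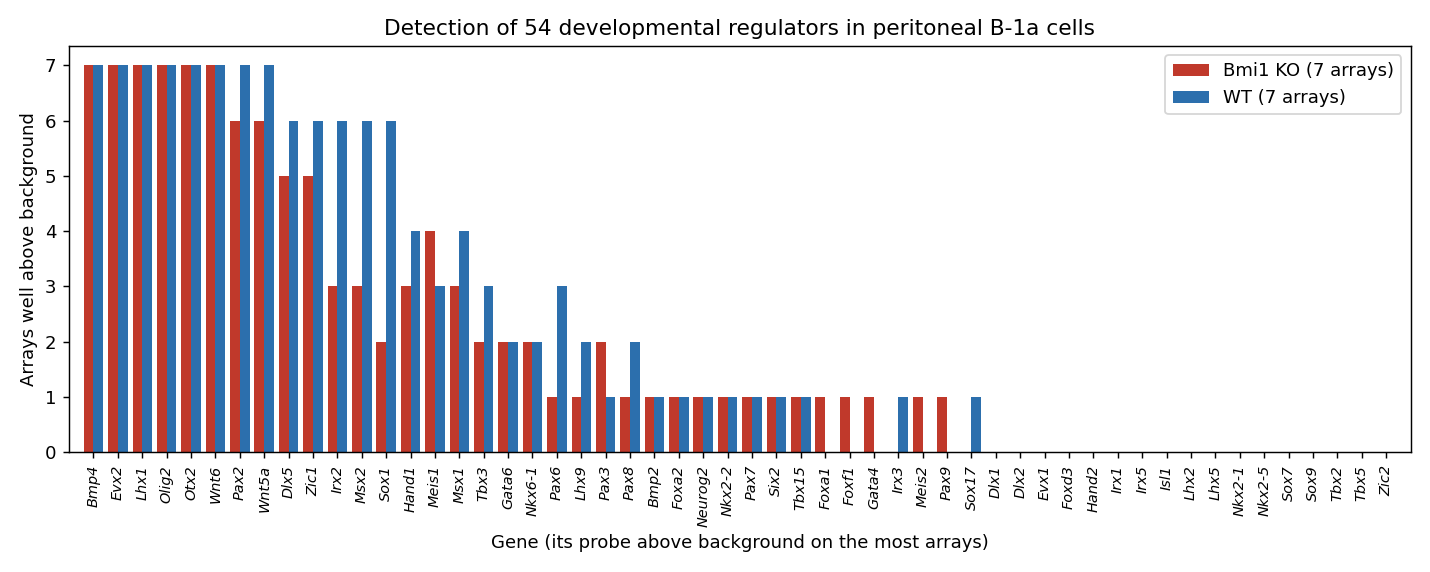
Number of arrays, of 7 Bmi1 KO (red, left bars) and 7 WT (blue, right bars), on which each gene's most often detected probe was well above background. The genes run from 6 that were above background on all 14 arrays to 17 that were above background on none.

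The group's mean share of detected probes was lower on Bmi1 KO than on WT arrays, as was that of all probes. Probes above background numbered 7 to 31 on Bmi1 KO arrays (median 14) and 11 to 26 on WT arrays (median 21). As a share of the 76 probes the mean was 22.2% in Bmi1 KO and 25.6% in WT, while for all probes it was 40.6% in Bmi1 KO and 52.3% in WT. The ranges of the genotypes overlap, and Bmi1 KO holds both the highest and the lowest array. Of the 76 probes, 10 (13.2%) were above background on more Bmi1 KO than WT arrays, 19 (25%) on more WT arrays and 47 on equal numbers. Of all probes, 11.8% were above background on more Bmi1 KO arrays and 49.3% on more WT arrays. Above background on at least 2 Bmi1 KO arrays and 0 WT arrays were 0 of the 76, beside 1.29% of all probes, and the reverse held for 0 of the 76, beside 3.48% of all probes.

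**Figure D2:**
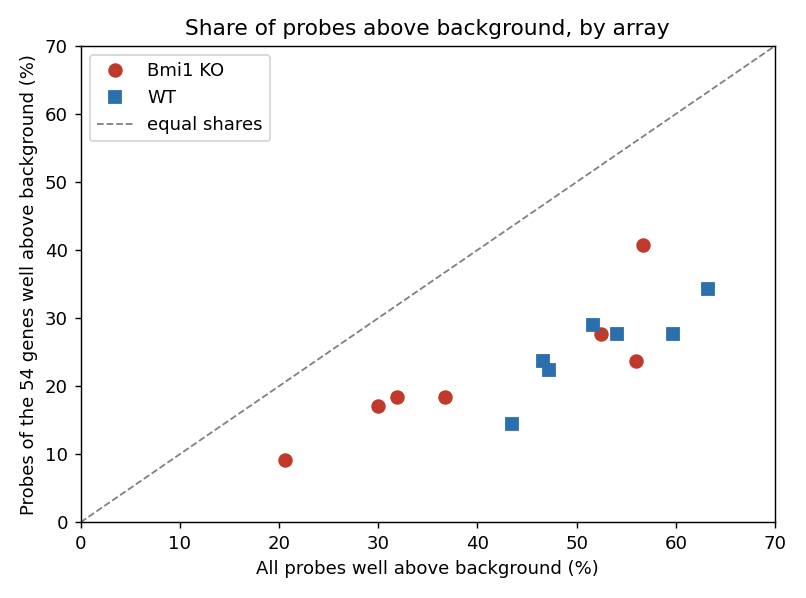
Percent of the group's 76 probes well above background (vertical) against the percent of all probes (horizontal), 1 point per array, with Bmi1 KO as red circles and WT as blue squares. Every array lies below the dashed line of equal shares, and the Bmi1 KO arrays reach from 9.21% to 40.8% of the group's probes.

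The highest count came from Bmi1 KO set 1 replicate 2, with 31 of 76 probes. Of the group's 11 probes that were above background on a single array, 7 were seen on that array. They belong to Pax9, Gata4, Foxa1, Foxf1, Six2, Meis2 and Hand1. The same array held 1841 of the 6197 probes of the whole series that were above background on a single array (29.7%), the largest share of the 14 arrays. WT set 2 replicate 4 held 21.2% of them and the other 12 arrays 2.1% to 11.5%. These 7 readings have no second array to check them.

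Brightness differed between the arrays. The share of spots above background was 20.6% to 56.6% on Bmi1 KO arrays and 43.7% to 63.1% on WT arrays, and the 4 arrays under 40% were all Bmi1 KO. The 75th percentile of log2 signal, to which levels were scaled, was 3.63 to 8.22 on Bmi1 KO arrays and 7.09 to 7.99 on WT arrays. The pair of Bmi1 probes does not check the labels, because no label says which part of the gene is deleted. Their levels were -3.15 to 2.62 (median -0.16) and -1.57 to 3.78 (median 2.58) in samples labelled Bmi1 KO, against -5.32 to -2.19 (median -4.73) and -3.12 to 2.09 (median 1.22) in WT. Both medians were higher in the samples labelled Bmi1 KO, and every direction given here rests on the labels. The B cell markers Cd79a, Cd79b, Ms4a1 and Cd22 were above background on 7 of 7 arrays of both genotypes, and Cd5 on 3 of 7 Bmi1 KO and 6 of 7 WT arrays.

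For the comparison of genotypes a probe had to give signal well over background on 4 or more of the 7 Bmi1 KO or of the 7 WT arrays, and each gene was represented by its brightest such probe. This left 16 of the 54 genes (29.6%, against 58.6% of all gene names), tested together with 20415 genes in all. Levels are log2 intensities minus the array's 75th percentile. With limma and adjustment over all genes, 0 of the 16 were higher and 0 lower in Bmi1 KO at an adjusted p under 0.05, a rule that called 0.0049% of all genes higher and 0.0196% lower. At an unadjusted p under 0.05, 1 was higher and 2 lower, where 10% of all genes were higher and 4.23% lower. These counts move with the scaling. By the probes detected on all 14 arrays, 0 of the 16 were higher and 5 lower, where 1.26% of all genes were higher and 15.8% lower. With quantile normalization 4 were higher and 3 lower, where 7.49% of all genes were higher and 8.0% lower. The groups overlapped for all 16, and they failed to overlap for 0.142% of all genes in the higher and 0.0931% in the lower direction. The median difference of the 16 was 0.70, Bmi1 KO minus WT, beside 0.47 for all genes. That general offset depends on the scaling: it was -0.71 when arrays were scaled by the probes detected on all 14. With that scaling the sign of the difference turned to negative for 9 of the 16 genes: Dlx5, Evx2, Hand1, Lhx1, Msx1, Otx2, Wnt5a, Wnt6 and Zic1. Differences are therefore also given relative to the median of all genes. That relative value moved by at most 0.00025 between these 2 scalings for any of the 16. Both subtract 1 value per array, so this follows from the arithmetic and does not test the relative values. Other changes did move them. The median relative value of the 16 was 0.23 in the main fit and 0.67 with quantile normalization. Without the arrays under 40% of probes above background it was 0.03.

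**Figure D3:**
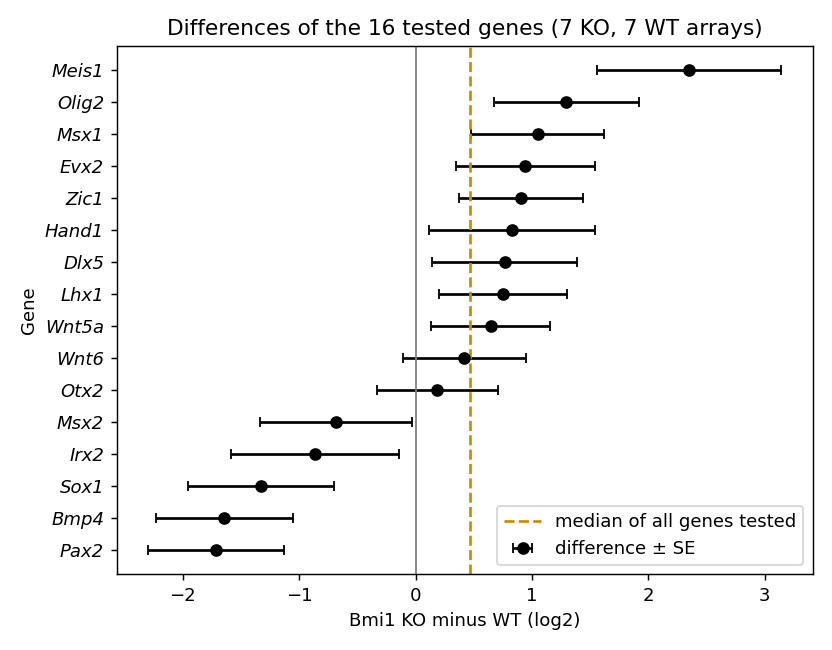
Bmi1 KO minus WT difference (log2) of the 16 tested genes with its standard error, over 7 Bmi1 KO and 7 WT arrays. Meis1 lies highest and Pax2 lowest, and the dashed line marks the median of all genes tested, 0.47.

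Meis1 had the largest difference of the group. It encodes a TALE homeodomain protein that binds DNA together with Hox and Pbx proteins and is known in blood stem cells and leukaemia. Its level was -2.53 at the lowest, -1.37 at the median and 0.46 at the highest in Bmi1 KO, against -5.52, -3.40 and -0.06 in WT. The ranges overlap through a single WT array, set 2 replicate 2, at -0.06, and the other 6 WT arrays lay below the lowest Bmi1 KO array. The probe was above background on 4 of 7 Bmi1 KO and 3 of 7 WT arrays, so 3 Bmi1 KO and 4 WT readings lie at background. The 3 Bmi1 KO readings at background are those of set 2 replicates 1, 2 and 3, which are dim arrays. Without scaling they were 3.14, 3.35 and 3.92, and 5 of 7 WT arrays lay above the lowest of them. The difference was 2.35 (SE 0.79; limma adjusted p = 0.317), or 1.88 relative to all genes. It was 3.60 in set 1 and 1.41 in set 2. On unscaled intensities the mean was 5.20 ± 2.16 in Bmi1 KO and 3.95 ± 1.75 in WT (log2, SD, n = 7 each). Meis2, a close relative with 1 probe, was above background on 1 of 7 Bmi1 KO and 0 of 7 WT arrays. Platelets and their precursors also use Meis1. Of 6 platelet and erythroid markers 3 entered the fit with 0 called. They were Pf4 at -2.71, Itga2b at 1.14 and the globin Hba-a1 at 2.13 (limma adjusted p = 0.348, 0.364 and 0.720). Pf4 was above background on 0 of 7 Bmi1 KO and 4 of 7 WT arrays. The summed level of the list was 0.39 to 12.12 in Bmi1 KO and -1.60 to 10.40 in WT (log2, overlapping ranges). Hba-a1 alone had an SD of 6.78 in Bmi1 KO and 5.49 in WT. The part of these cells in the Meis1 reading was not tested.

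Pax2 lay lower in Bmi1 KO by its best detected probe. Pax2 is a paired box factor of the developing kidney, optic nerve and hindbrain. Its first probe read -2.82 at the lowest, -1.57 at the median and 1.18 at the highest in Bmi1 KO, against -0.34, 0.67 and 1.46 in WT. In set 1 all 3 Bmi1 KO arrays lay below all WT arrays, while in set 2 the 4 Bmi1 KO arrays were spread from -1.57 to 1.18. The difference was -1.71 (SE 0.58; limma adjusted p = 0.320), or -2.18 relative to all genes. The probe was above background on 6 of 7 Bmi1 KO and 7 of 7 WT arrays, and its unscaled mean was 5.34 ± 1.95 in Bmi1 KO and 8.16 ± 0.59 in WT (log2, SD, n = 7 each).

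The other Pax2 probes did not read alike. The second, above background on 5 of 7 Bmi1 KO and 6 of 7 WT arrays, had a median of -1.82 in Bmi1 KO and -2.67 in WT with a difference of 0.08 (two-sided exact permutation test within sets, p = 0.937). It had 1 high array, WT set 2 replicate 1, at 2.91. The third, seen on 1 of 7 Bmi1 KO and 3 of 7 WT arrays, had a difference of 0.74 (two-sided exact permutation test, p = 0.320). The 3 probes span 74535 bases of the chromosome, so they need not lie in the same transcripts.

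Bmp4 was likewise lower in Bmi1 KO. It encodes a secreted ligand of the TGF-beta superfamily that patterns mesoderm and is made by many stromal and epithelial cells. Its first probe, above background on all 14 arrays, read -1.11 at the lowest, 1.21 at the median and 2.10 at the highest in Bmi1 KO, against 0.69, 2.33 and 4.41 in WT. The ranges overlap, with 3 Bmi1 KO arrays, all of set 1, below every WT array. The difference was -1.64 (SE 0.58; limma adjusted p = 0.327), or -2.11 relative to all genes. The second probe, which lies within the same 253 bases and has 15% G and C, was above background on 0 of 14 arrays.

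Mesothelial cells line the peritoneal cavity, and their markers did not all point one way. Of 10 markers 2 entered the fit with 0 called, Krt8 at -3.07 (limma adjusted p = 0.256) and Krt18 at -1.81 (limma adjusted p = 0.348), both keratins. The second Krt8 probe, above background on 1 of 7 arrays in both genotypes, averaged -3.84 in Bmi1 KO and -4.95 in WT. Summed over the list the level was -0.84 to 1.85 in Bmi1 KO and 0.81 to 3.47 in WT (log2), with 0 to 3 of the markers above background on a Bmi1 KO array and 2 to 4 on a WT array. The summed ranges overlap. The defining marker Msln was above background on 0 of 7 Bmi1 KO and 1 of 7 WT arrays, and Upk3b on 1 of 7 Bmi1 KO and 0 of 7 WT arrays. Their part in the Bmp4 and Pax2 readings was not tested.

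The arrays lay on 3 slides, and the third held 2 WT arrays of set 2 and no Bmi1 KO array. The direction of these 3 genes was the same on slide 1, on slide 2 and without the 4 dim arrays. In the fit with slide as a fixed block the differences were 2.78 for Meis1, -1.97 for Pax2 and -1.78 for Bmp4, with limma adjusted p of 0.475, 0.496 and 0.532. On slide 1, which held the arrays of set 1, they were 3.60, -2.83 and -2.30, and on slide 2, with 4 Bmi1 KO and 2 WT arrays, 1.85, -1.01 and -1.20. Without the 4 dim Bmi1 KO arrays they were 2.95, -1.62 and -1.52 (limma adjusted p 0.832, 0.832 and 0.926).

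Brightness overlapped in part between the genotypes. Of the 7 Bmi1 KO arrays, 4 were dimmer than every WT array. By share of spots above background, the others, at 52.3%, 56.1% and 56.6%, lay within the WT range of 43.7% to 63.1%. By the 75th percentile, Bmi1 KO set 2 replicate 4 lay within the WT range and set 1 replicate 3 above it. Bmi1 KO set 1 replicate 2, at 7.995, was level with the brightest WT array, set 1 replicate 4, at 7.992. Without scaling, Bmi1 KO set 2 replicate 4 read 8.32 for Pax2 and 9.45 for Bmp4. Both lay inside the WT ranges, 7.05 to 8.82 and 8.08 to 11.50. Bmi1 KO set 1 replicates 2 and 3 read 5.53 and 5.93 for Pax2, below every WT array. For Bmp4 they read 7.28 and 8.34, on either side of the lowest WT array. WT set 1 replicate 4 read 8.57 for Pax2 and 10.32 for Bmp4.

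**Figure D4:**
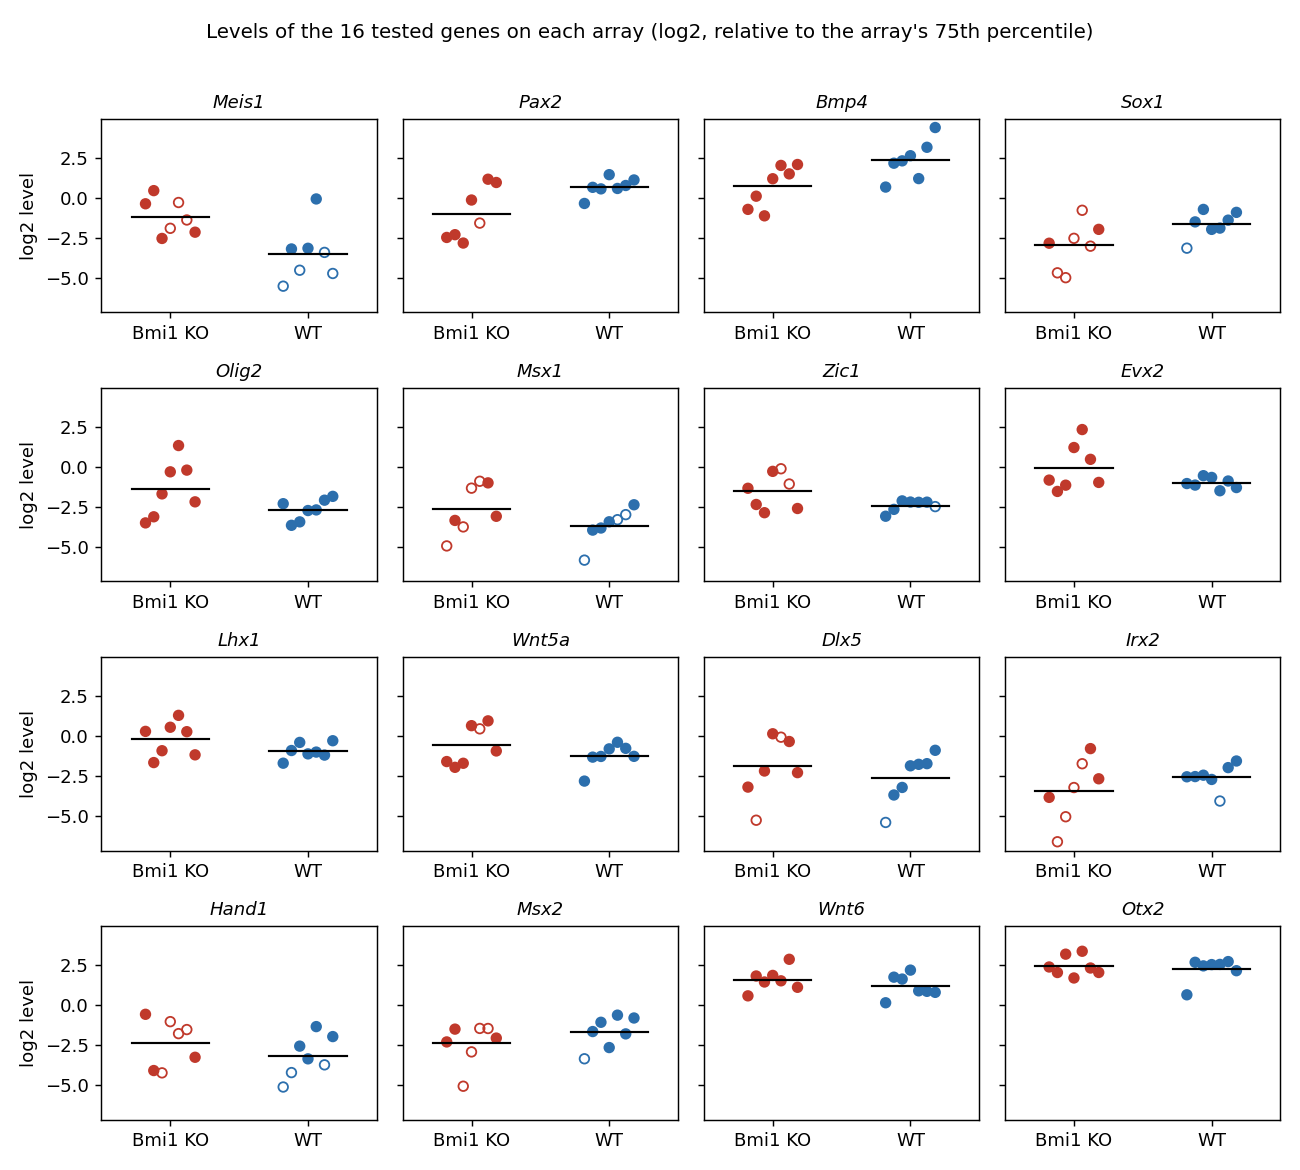
Level of the 16 tested genes on each array (log2, relative to the array's 75th percentile), ordered by p from Meis1 to Otx2, with 7 Bmi1 KO arrays left and 7 WT arrays right. Filled points were well above background, open points were not, and lines are means. No gene separates the genotypes fully.

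Among neural regulators, Sox1 and Olig2 came next by p. Sox1 marks neural progenitors. Its brighter probe read -4.98 at the lowest, -2.83 at the median and -0.77 at the highest in Bmi1 KO, against -3.14, -1.49 and -0.71 in WT, and was above background on 2 of 7 Bmi1 KO and 6 of 7 WT arrays. The ranges overlap, and the difference was -1.33 (SE 0.63; limma adjusted p = 0.348) or -1.79 relative to all genes. Most Bmi1 KO readings of Sox1 thus lie at background, and its second probe was above background on 0 of 14 arrays.

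Olig2, the factor of oligodendrocytes and motor neurons, read -3.49 at the lowest, -1.67 at the median and 1.35 at the highest in Bmi1 KO, against -3.64, -2.68 and -1.83 in WT. The difference was 1.30 (SE 0.62; limma adjusted p = 0.348) or 0.83 relative to all genes, with 4 Bmi1 KO arrays above all WT arrays. These 4 are the arrays with under 40% of spots above background. Before scaling, the Olig2 probe hardly differed between arrays. Its unscaled log2 intensity was 4.22 to 5.32 over all 14 arrays, with a mean of 4.99 ± 0.28 in Bmi1 KO and 4.80 ± 0.38 in WT (SD, n = 7 each). Among 7057 probes above background on all 14 arrays with a value on each, only 2.96% had a smaller SD of unscaled signal.

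Evx2, a homeobox gene at the end of the HoxD cluster, showed the same picture. Its first probe read -1.52 at the lowest, -0.81 at the median and 2.35 at the highest in Bmi1 KO, against -1.48, -1.03 and -0.54 in WT, a difference of 0.94 (SE 0.60; limma adjusted p = 0.414) or 0.48 relative to all genes. Unscaled, it ran from 5.78 to 7.46, with a mean of 6.31 ± 0.50 in Bmi1 KO and 6.47 ± 0.58 in WT (SD, n = 7 each), and 12.3% of such probes had a smaller SD. Of its bases 83.3% are G or C, as the capitals in its sequence show, a share that 99.97% of all probes fall below. The second Evx2 probe, within 565 bases of it and with 60% G and C, was above background on 0 of 14 arrays.

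**Figure D5:**
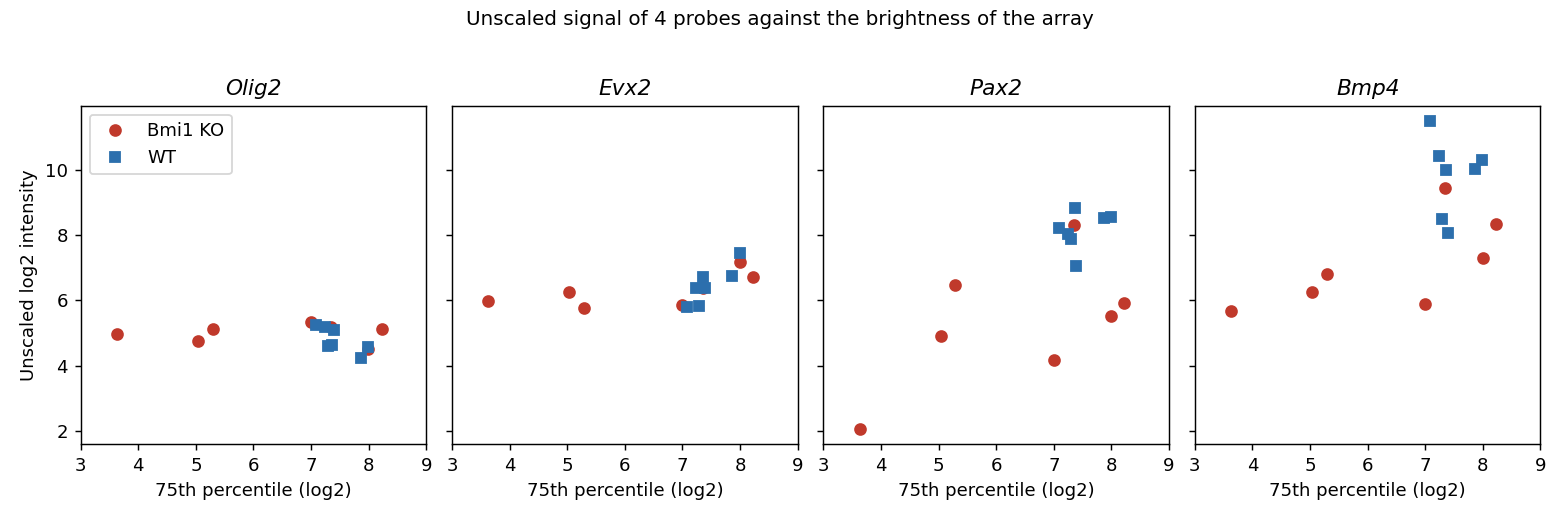
Unscaled log2 intensity of the first probes of Olig2, Evx2, Pax2 and Bmp4 (vertical) against the 75th percentile of each array (horizontal), with Bmi1 KO as red circles and WT as blue squares. Olig2 stays between 4.22 and 5.32 on all arrays. The Bmi1 KO array at 7.35 reads Pax2 and Bmp4 within the WT ranges. At 7.99, level with the brightest WT array, a Bmi1 KO array reads 5.53 and 7.28, below every WT array.

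A signal that is near constant before scaling has, by the subtraction itself, a higher level on a dim array after it. The 30 probes of the group that were above background on 0 arrays all read higher in Bmi1 KO, by 0.40 to 1.31 with a median of 0.97, and the median over all 9313 such probes was 0.95. When every probe was tested without a filter, 0 of the 76 were called in either direction (limma), beside 0.0018% of all probes higher and 0.0144% lower. At an unadjusted p under 0.05, 9 were higher and 2 lower, beside 8.97% of all probes higher and 3.16% lower. Of the 11 tested genes with a difference above 0, those other than Meis1 lay between 0.19 and 1.30, the range of the undetected probes or below it. Not all of them were near constant before scaling. The SD of unscaled signal was 1.33 for Otx2 and 1.27 for Wnt6. Of the 7057 probes compared above, 75.3% and 71.8% had a smaller SD. The part of the scaling in these differences was not tested.

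Pairs of probes for 1 gene often disagreed on whether the gene was on. Of 19 genes with several probes, 6 had 1 probe above background on 7 or more arrays and another on 0, namely Sox1, Lhx1, Irx2, Evx2, Zic1 and Bmp4. Otx2 had 1 probe above background on 14 arrays and another, 7157 bases across, on 5. Detection of a gene here is detection by a given probe.

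The remaining homeobox genes with the smaller p-values read as follows. Msx1, a regulator of craniofacial and limb outgrowth, read -4.93 at the lowest, -3.08 at the median and -0.88 at the highest in Bmi1 KO, against -5.82, -3.42 and -2.36 in WT, a difference of 1.05 (SE 0.57) or 0.58 relative to all genes. Lhx1, needed for head and kidney formation, read -1.65, 0.28 and 1.31 in Bmi1 KO at the lowest, median and highest, against -1.69, -0.99 and -0.28 in WT, a difference of 0.75 (SE 0.55) or 0.29 relative to all genes. The ranges overlap, with 3 Bmi1 KO arrays above all WT arrays for Msx1, all dim, and 4 for Lhx1, 3 of them dim.

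Dlx5, a factor of bone and forebrain, read -5.26 at the lowest, -2.18 at the median and 0.15 at the highest in Bmi1 KO, against -5.40, -1.85 and -0.88 in WT, a difference of 0.76 (SE 0.62) or 0.30 relative to all genes. Irx2, an Iroquois factor of patterning, read -6.60, -3.21 and -0.78 in Bmi1 KO at the lowest, median and highest, against -4.06, -2.53 and -1.55 in WT, a difference of -0.87 (SE 0.72) or -1.33 relative to all genes. It was above background on 3 of 7 Bmi1 KO and 6 of 7 WT arrays. Irx2 differed by -2.66 in set 1 and 0.48 in set 2, and the difference between the sets was 3.13 (SE 1.25; limma adjusted p = 0.872). Within the sets, 0 of the 16 genes were called (limma), where 0.0098% of all genes were called in set 1 and 0.0049% in set 2. No gene of the 20415 passed that test of sets (0% called), and 4.84% of all genes had an unadjusted p under 0.05, with Irx2 the only one of the 16.

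Zic1, a zinc finger factor of the cerebellum, read -2.85 at the lowest, -1.32 at the median and -0.10 at the highest in Bmi1 KO, against -3.07, -2.20 and -2.11 in WT, a difference of 0.91 (SE 0.53) or 0.44 relative to all genes. Of its 4 Bmi1 KO arrays above all WT arrays, 3 were dim, and set 2 replicates 2 and 3 among them read at background. Wnt5a, a ligand of non-canonical Wnt signalling, read -1.95, -0.92 and 0.96 in Bmi1 KO at the lowest, median and highest, against -2.81, -1.26 and -0.38 in WT, a difference of 0.64 (SE 0.51) or 0.18 relative to all genes. Limma adjusted p was 0.365 to 0.527 for these 6 genes, Msx1, Lhx1, Dlx5, Irx2, Zic1 and Wnt5a.

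Otx2 and Wnt6 had the largest p-values of the 16. Otx2, the factor of forebrain and midbrain, read 1.71 at the lowest, 2.34 at the median and 3.38 at the highest in Bmi1 KO, against 0.66, 2.55 and 2.74 in WT, a difference of 0.19 (SE 0.52; limma adjusted p = 0.870) or -0.28 relative to all genes. Wnt6, a Wnt ligand of epithelia, read 0.59, 1.53 and 2.88 in Bmi1 KO at the lowest, median and highest, against 0.16, 0.91 and 2.20 in WT, a difference of 0.42 (SE 0.53; limma adjusted p = 0.693) or -0.046 relative to all genes. The ranges overlap, with 2 Bmi1 KO arrays above all WT arrays for Otx2 and 1 for Wnt6. Hand1 of the heart and trophoblast differed by 0.83 (SE 0.71) and Msx2 of skull and limb by -0.69 (SE 0.65), or 0.36 and -1.15 relative to all genes, with limma adjusted p of 0.540 and 0.583, and both were above background on 3 of 7 Bmi1 KO arrays.

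Gata6 was too rarely detected to be tested, but was bright on 1 array of each genotype. It is a factor of heart and endoderm, and in the mouse peritoneum it marks resident macrophages. Its unscaled log2 intensity was 2.04 at the lowest, 3.31 at the median and 8.14 at the highest in Bmi1 KO, against 1.97, 3.61 and 7.33 in WT. The high values came from replicate 2 of set 2 in both genotypes, and the other 12 arrays lay at 4.89 or below. The macrophage markers Timd4 and Alox15 read 8.48 and 10.73 on that Bmi1 KO array and 8.76 and 11.59 on that WT array. Timd4 reached at most 3.50 on the other Bmi1 KO arrays and 5.52 on the other WT arrays. Alox15 was about as high on Bmi1 KO set 2 replicate 1, at 10.76, and on WT set 2 replicate 4, at 10.83, where Gata6 read 2.20 and 4.89. Of other macrophage genes, Lyz2 read 11.90 on that Bmi1 KO array and 14.40 on that WT array, the highest of each genotype. It was nearly as high on Bmi1 KO set 2 replicate 1, at 11.78, and next highest in WT on set 2 replicate 4. Csf1r at 9.44 and Prg4 at 3.94 had their lowest unscaled readings of the 14 arrays on Bmi1 KO set 2 replicate 2, the dimmest array. After scaling, Csf1r was the highest of the 14 there, at 5.82, and Prg4 stood at 0.32, within the range of the other arrays. Over all 13 macrophage markers, 9 entered the fit with 0 called, 5 to 10 were above background on a Bmi1 KO array and 7 to 13 on a WT array, and the summed level was 8.23 to 13.54 in Bmi1 KO and 8.67 to 10.14 in WT (log2). The part of macrophages in the Gata6 reading was not tested. The scaled difference of Gata6 between the genotypes was 0.92 (two-sided exact permutation test within sets, p = 0.561).

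A few more genes were above background on 4 or 5 arrays and stayed outside the fit. Tbx3, a T-box factor of limb and mammary gland, was seen on 2 of 7 Bmi1 KO and 3 of 7 WT arrays, Nkx6-1 of pancreatic beta cells on 2 of 7 in both genotypes, and Pax6 of eye and brain on 1 of 7 Bmi1 KO and 3 of 7 WT arrays. Their differences were 1.01, 0.40 and 0.13 (two-sided exact permutation tests within sets, p = 0.05, 0.444 and 0.867, unadjusted). All 3 have Bmi1 KO and WT ranges that overlap.

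By family, detections were counted over all probes and arrays. Beside these counts, the mean share of all probes above background was 40.6% on Bmi1 KO and 52.3% on WT arrays. The 6 paired box genes, each above background on at least 1 array, had 19 detections on Bmi1 KO arrays and 25 on WT arrays of 77 possible in each genotype. The 4 ligands had 21 detections in Bmi1 KO and 22 in WT of 35 possible, and Otx2 10 in Bmi1 KO and 9 in WT of 14. The 4 SRY-box genes had 2 in Bmi1 KO and 7 in WT of 42, and the 5 LIM homeobox genes 9 in Bmi1 KO and 11 in WT of 56. Forkhead genes had 3 in Bmi1 KO and 1 in WT of 42. In Bmi1 KO these were Foxa1 and Foxf1 on set 1 replicate 2 and Foxa2 on set 1 replicate 3. In WT it was Foxa2 on set 2 replicate 1. The Iroquois genes had 3 in Bmi1 KO and 7 in WT of 35. The Msx genes had 6 in Bmi1 KO and 10 in WT of 14, and the TALE genes 5 in Bmi1 KO and 3 in WT of 14. Pax5, the paired box gene of the B lineage, stood at 6.76 ± 1.94 in Bmi1 KO and 6.24 ± 0.52 in WT (log2 level, SD, n = 7 each) and was above background on 7 of 7 arrays of both genotypes by its brighter probe. Its second probe stood at 1.39 ± 2.68 in Bmi1 KO and 2.96 ± 0.83 in WT, above background on 5 of 7 Bmi1 KO and 7 of 7 WT arrays.

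A wider list held 105 other developmental regulators. Of these 24 entered the fit, 0 were called in either direction (limma), and 38 were above background on no array. At an unadjusted p under 0.05, 1 was higher and 1 lower, where 10% of all genes were higher and 4.23% lower. The pair was Fgf8, a fibroblast growth factor of limb and brain, at 1.16 and Tfap2c, a factor of trophoblast and germ cells, at -1.98 (limma adjusted p = 0.348 for both). Gata5 and Wnt1 had the next smallest p, with differences of 1.07 and 1.02 (limma adjusted p = 0.354 and 0.362). Their median difference relative to all genes was 0.09, beside 0.23 for the 16 genes. Of 39 Hox genes 11 entered the fit and 1, Hoxc9, was called higher, where 0.0049% of all genes were called higher. All 16 listed transcription factors of the B lineage and all 10 B cell markers entered it with 0 called. So did 4 of 6 endothelial, 4 of 7 T and NK cell, 2 of 5 mast cell and 1 of 8 stromal markers, again with 0 called.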

How the data were processed

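RNA of each sample was measured on a one-colour Agilent array. Per the file headers, the authors' intensity values came from Feature Extraction 10.7.3.1, with detrending on and dim spots given surrogate values; positions follow mm9. The deposited scanner files also mark each spot with a score of 0 or 1 for signal well above background and for outliers. The deposited table of log2 values, alike in distribution across columns, served as an alternative; the sources used here name no tool for it. Its scale and direction were read from a comparison with the scanner values.

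Levels are log2 of processed intensity minus the array's 75th percentile, without outlier spots. Genes were tested with limma 3.58.1 in R 4.3.3 (set as covariate, two-sided, Benjamini-Hochberg over 20415 genes, threshold 0.05) and single probes by exact permutation within sets (1400 arrangements, smallest p 0.00143). The fit was tested on simulated data. Figures used matplotlib. The number of arrays limits the precision.

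Array values are given for the 12 members with the smallest p, the 6 above background on the most arrays, and members that a result turned on (Gata6, further probes of Pax2), the last chosen after their values were seen. Members and lists were chosen with earlier results of these data known. Gene names follow the array's own annotation.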

Additional observations from a re-analysis of the deposited data

Results flagged for a closer look

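Within 23 probes above background on at least 4 arrays, 46 groups of 7 arrays of a genotype were checked. In 4 of the 46 the highest or lowest array stood apart (gap over range above Dixon's critical value). For normally distributed values chance gives about 1 in 20. Some readings here lie at background, so that rate need not hold. Gata6 read 4.52 on Bmi1 KO set 2 replicate 2, against -2.83 on the next highest Bmi1 KO array, where it was not above background. Msx2 read -5.06 on Bmi1 KO set 1 replicate 4, where the next lowest Bmi1 KO array read -2.91, and neither reading was above background. On WT set 1 replicate 2, Otx2 read 0.66 (next lowest WT array 2.17) and Wnt5a -2.81 (next lowest WT array -1.31).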

How the results depend on the processing

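In 29 alternative runs, 14 of them without 1 array each, 0 of the tested members were called higher and 0 lower. Calls were rare over all genes too. Each run called 0 to 5 of all genes or probes tested higher and 0 to 62 lower. The 62 came, among 20415 genes, with scaling by probes detected on all 14 arrays. The smallest limma adjusted p of any member was 0.103 (Bmp4, with that scaling). Relative to all genes, 10 of the 16 kept their direction in every run they entered. Meis1 ranged from 0.73 to 3.48, Pax2 from -2.94 to -1.10 and Bmp4 from -2.42 to -1.45. Without that subtraction the sign held in 22 (Otx2) to 29 runs. Relative to all genes, where Otx2 stood at -0.28 and Wnt6 at -0.046, direction turned without the arrays under 40% of probes above background for Dlx5 (-0.29), Evx2 (-0.046), Otx2 (0.064) and Wnt6 (0.059), on slide 1 alone for Evx2 (-0.37), Otx2 (0.50) and Wnt5a (-0.063), without a filter for Wnt5a (-0.062) and with every kept probe for Wnt6 (0.10). Among runs without 1 array, Hand1 ranged from -0.15 to 0.64 (turned without Bmi1 KO set 1 replicate 2) and Wnt6 from -0.22 to 0.13 (turned in 4). The median of the members relative to all genes was -0.029 when all 7 arrays of a genotype had to be above background, which left 8 members. The cause of these turns was not tested. Without single arrays, 1 to 4 members were higher and 2 to 3 lower at an unadjusted p under 0.05. Over all genes the shares in these runs were 5.58% to 19.8% higher and 3.16% to 5.14% lower. The most members and the 19.8% came without Bmi1 KO set 2 replicate 4. With the replicate block, 0 members were called and Meis1 stood at 1.88. Correlations of same-numbered arrays ran from -0.23 to 0.18. These cannot settle whether same-numbered samples share an origin, and the labels do not say. Signal over background limits the comparison: 38 of the 54 genes were above background on too few arrays of both genotypes to be tested.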
